A study of Mus musculus with 9 samples.

Results

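The endoplasmic reticulum (ER) unfolded protein response was followed through 34 genes in RNA-seq of sorted nephron progenitors lacking the mitochondrial complex III subunit QPC, encoded by *Uqcrq*. Members were found by symbol in the deposited count table, and all 34 were present among its 26858 genes. They comprise 9 ER chaperones and co-chaperones, 6 lectin chaperones and disulfide isomerases, 4 sensors and transcription factors, 10 genes of ER-associated degradation and 5 genes of translocation and signal peptide removal. The list was drawn up by function, with earlier results of these data known.

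Cells carried a transgene from a bacterial artificial chromosome in which the *Six2* promoter drives Cre recombinase fused to eGFP. The eGFP+ cells were sorted from kidneys at age E18.5. Control cells (n = 4 libraries) were *Six2-Qpc* heterozygous, so that they too carried the transgene and could lose 1 *Qpc* allele, and mutant cells (n = 5) were *Six2-Qpc* knockout. For this sort, the study could not fully exclude that differentiating control cells with low eGFP were captured. cDNA was amplified from low-input RNA, selected for poly(A), and made into libraries without strand information. The study gives these numbers as mice. Sex, litter and pooling of kidneys were not given in the sources used here, and the p-values measure the spread between these libraries, which may in part be technical.

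Values of single libraries are given in the order of the replicate labels, 71, 72, 73 and 76 for controls and 74, 75, 77, 78 and 79 for mutants. Library totals lay between 21040536 and 23986458 counts. *Uqcrq*, the deleted gene, averaged 94.1 ± 13.3 counts per 1000000 normalized counts (CPM, SD) in controls and 21.3 ± 4.45 in mutants, and each library matched its label. Summed CPM of 8 nephron progenitor markers, *Six2* and *Cited1* among them, spanned 2108 to 2608 in controls and 2113 to 2574 in mutants, and none of the 8 passed the test (1 higher and 1 lower at an unadjusted p under 0.05). Markers of stroma summed to 129 to 220.2 CPM in controls and 278 to 720.1 in mutants, with 5 of 9 tested higher and 7 of 9 higher at an unadjusted p under 0.05. Macrophage markers summed to 2.43 to 9.58 against 7.84 to 94.7 CPM, with 2 of 7 higher and 7 of 7 higher at an unadjusted p under 0.05. Of the tested markers of other kidney cells, 1 of 4 for endothelium was higher and 1 lower, with 0 more at an unadjusted p under 0.05, and 0 of 3 for ureteric bud, 0 of 3 for podocytes, 0 of 2 for proximal tubule and 0 of 1 for erythroid cells passed the test, with 3, 2, 0 and 0 at an unadjusted p under 0.05. Endothelial markers summed to 16.1 to 23.9 CPM in controls and 6.17 to 13.8 in mutants. Sums were 44.9 to 62.9 against 27.3 to 49.4 CPM for ureteric bud, and 18.1 to 36.1 against 20.3 to 40.4 for podocytes. They were 2.39 to 6.58 against 2.26 to 12.8 CPM for proximal tubule, and 1.39 to 2.66 against 1.43 to 2.4 for erythroid cells. No marker of the stromal and macrophage lists was at 0 in all 9 libraries. The part of all these cell types in the results that follow was not tested. In sorted bulk samples, fewer cells of a type and less RNA per cell cannot be told apart.

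Secreted and membrane proteins fold in the ER, and 3 membrane sensors respond when unfolded proteins accumulate there. IRE1, encoded by *Ern1*, splices the *Xbp1* mRNA, and the spliced form encodes a transcription factor for translocation, folding and degradation genes. ATF6 moves to the Golgi, is cut there, and its released fragment drives ER chaperone genes such as *Hspa5*. PERK phosphorylates eIF2α, which lowers general translation and raises translation of ATF4, a factor that cells also use under amino acid shortage and mitochondrial stress through other eIF2α kinases. The question asked of the data was whether ATF6 and XBP1 targets moved along with the ATF4 response.

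Promoters of 28 of the 34 members were matched by symbol in RefSeq, as windows of 300 bases from 250 before to 50 after the transcription start. Each window was searched on both strands for 4 motifs. The ER stress element (ERSE) is read by ATF6 with NF-Y, and was searched as CCAAT, any 9 bases and CCACG. ERSE-II was searched as ATTGG, any 1 base and CCACG, the unfolded protein response element as TGACGTG, and the element read by ATF4 with C/EBP proteins as TGATGNAA. ERSE and ERSE-II both end in CCACG, but no stretch matched both in the promoters printed here. The 4 sequences below are shown because they hold the elements of the branches compared here, from genes whose RNA did or did not move. Capitals mark matches to the motifs on either strand, and the sequences are RefSeq, GRCm38.p6.
Hspa5: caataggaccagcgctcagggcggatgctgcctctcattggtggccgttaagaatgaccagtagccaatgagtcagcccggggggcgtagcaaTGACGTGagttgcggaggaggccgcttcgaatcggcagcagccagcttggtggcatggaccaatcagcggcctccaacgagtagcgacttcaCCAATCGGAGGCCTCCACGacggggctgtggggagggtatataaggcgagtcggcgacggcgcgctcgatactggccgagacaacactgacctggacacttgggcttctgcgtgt
Hsp90b1: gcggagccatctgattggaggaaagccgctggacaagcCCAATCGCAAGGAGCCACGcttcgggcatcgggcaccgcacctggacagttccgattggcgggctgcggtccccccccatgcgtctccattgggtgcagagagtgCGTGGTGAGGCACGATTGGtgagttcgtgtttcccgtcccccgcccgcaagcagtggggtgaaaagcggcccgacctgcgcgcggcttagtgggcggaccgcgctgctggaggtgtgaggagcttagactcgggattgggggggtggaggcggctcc
Herpud1: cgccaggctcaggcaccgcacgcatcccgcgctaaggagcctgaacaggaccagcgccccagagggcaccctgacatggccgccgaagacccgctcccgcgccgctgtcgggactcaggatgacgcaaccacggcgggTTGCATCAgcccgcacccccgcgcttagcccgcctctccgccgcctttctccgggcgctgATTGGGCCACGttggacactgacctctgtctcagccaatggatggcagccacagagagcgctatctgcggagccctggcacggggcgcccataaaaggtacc
Asns: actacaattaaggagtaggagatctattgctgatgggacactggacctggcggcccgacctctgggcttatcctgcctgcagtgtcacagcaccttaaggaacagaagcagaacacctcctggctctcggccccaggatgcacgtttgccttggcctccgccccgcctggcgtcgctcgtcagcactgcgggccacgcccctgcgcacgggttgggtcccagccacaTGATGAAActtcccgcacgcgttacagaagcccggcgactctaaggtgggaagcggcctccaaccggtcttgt
The *Hspa5* window is chr2:34771840-34772139 on the plus strand, that of *Hsp90b1* chr10:86705395-86705694 on the minus strand, that of *Herpud1* chr8:94386179-94386478 on the plus strand, and that of *Asns* chr6:7693160-7693459 on the minus strand.

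In *Hspa5*, which encodes the chaperone BiP, the ERSE began 65 bases before the start and TGACGTG began 157 bases before it. *Hsp90b1*, which encodes the chaperone GRP94, held 2 ERSE matches, beginning 212 and 107 bases before the start. *Herpud1*, a membrane component of ER-associated degradation, held both an ERSE-II, 52 bases before the start, and a TGATGNAA match on the opposite strand, 112 bases before it. *Asns*, the asparagine synthetase gene and an ATF4 target that is not a member, held TGATGNAA alone of the 4 motifs.

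ERSE was found in 9 of the 28 member promoters (32.1%), against 0.119% of 32851 promoters of the same length and 0 of 28 promoters of ATF4 response genes. The 9 genes were *Hspa5*, *Hsp90b1*, *Calr*, *Canx*, *Pdia6*, *Dnajc3*, *Creld2*, *Syvn1* and *Derl3*. ERSE-II was found in *Herpud1* and *Dnajb11* (7.14%, against 0.0365% of all promoters), and TGACGTG in *Hspa5* alone (3.57%, against 2.01%). TGATGNAA was found in 1 member, *Herpud1* (3.57%), in 10 of 28 ATF4 response promoters (35.7%) and in 3.97% of all promoters. Among members, *Herpud1* was the gene that held both a TGATGNAA and an ER stress motif. A match is a run of letters in the window, and binding was not measured. Both lists were drawn up from genes known for these responses, so their motif shares are partly set by that choice.

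The 34 members did not move as a block. All 34 passed the filter on low counts, and 4 were higher and 2 were lower in mutants at an adjusted p under 0.05 (edgeR quasi-likelihood test, Benjamini-Hochberg over 14990 genes). *Herpud1*, *Dnajb9*, *Ern1* and *Sec11c* rose, and *Sdf2l1* and *Edem2* fell. These 6 are 17.6% of the members, beside 14.8% of all genes tested, 7.82% higher and 7.02% lower. The median log2 fold change, mutant minus control, was 0.069 over members and -0.009 over all genes tested. It was positive in 18 members and negative in 16, and members ranged from -0.90 to 1.20. The 5 mutant libraries lay above the 4 control libraries in 5 members (*Herpud1*, *Ern1*, *Sec11c*, *Edem1*, *Edem3*), where 7.50% of all genes did so, and below them in 2 (*Sdf2l1*, *Edem2*), where 7.73% did. The other 27 members overlapped between genotypes. At an unadjusted p under 0.05 there were 12 members, 8 higher and 4 lower. Beside them stood 31.4% of all genes, 2436 higher and 2273 lower of 14990. Without single libraries the higher count ranged from 1 (without control replicate 73, or mutant replicate 75 or 78) and 2 (without control replicate 71 or 72, or mutant replicate 77) to 5 (without mutant replicate 74), and the lower count from 2 to 3. The share of all genes called moved alongside, from 6.85% without control replicate 73 (members 8.82%) to 21.2% without mutant replicate 74 (members 23.5%). Members took 0.853 ± 0.0581% of normalized counts in controls and 0.881 ± 0.0722% in mutants (2-sided exact permutation test over 126 splits, p = 0.532).

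**Figure D1:**
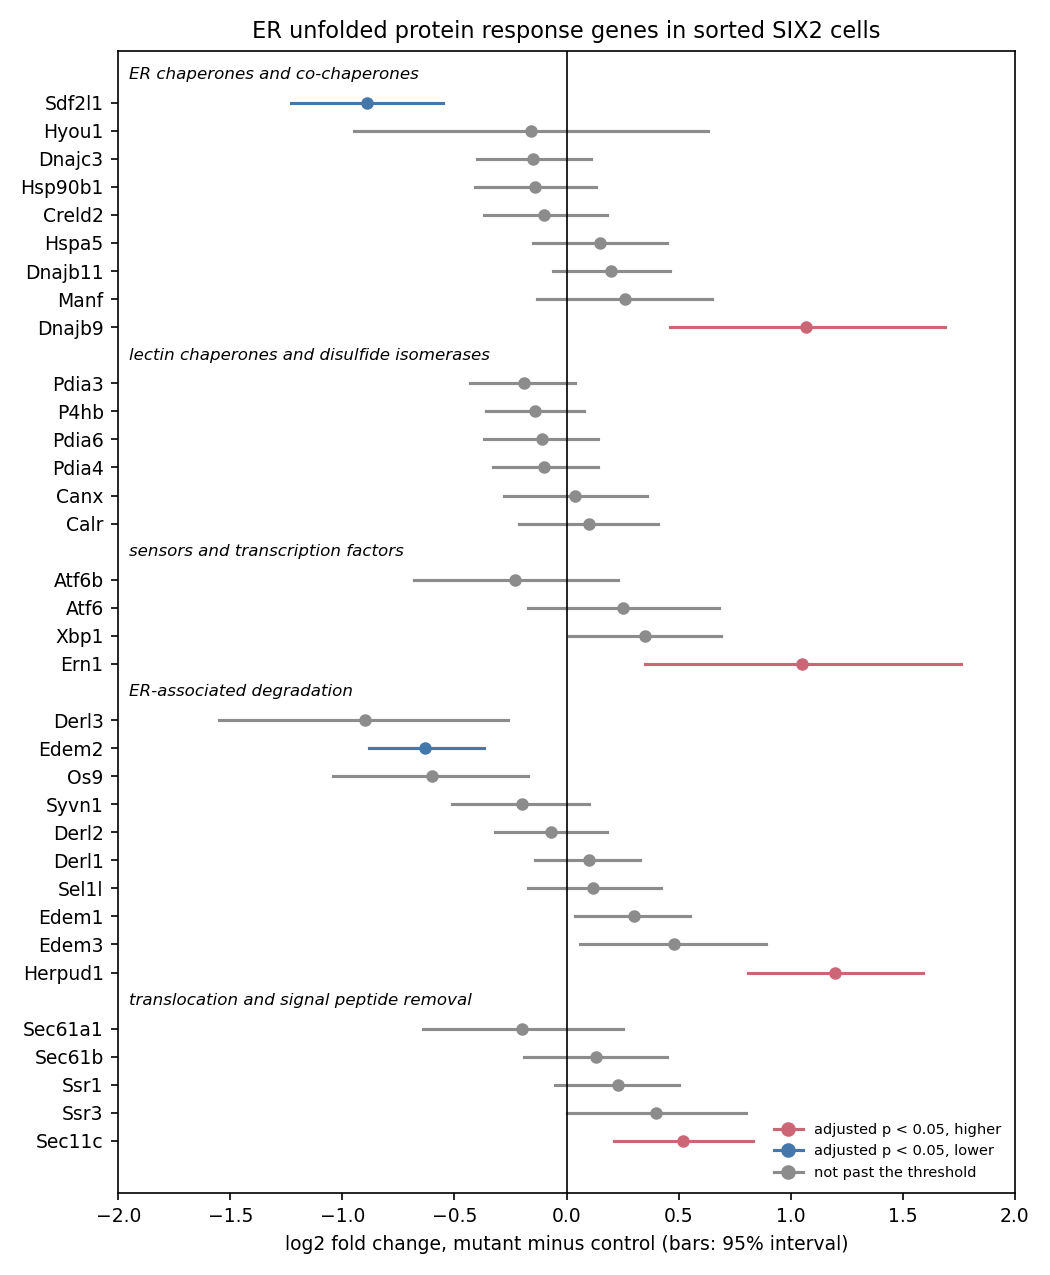
Log2 fold change of each member, mutant minus control, with its 95% interval, grouped by role and coloured by whether it passed an adjusted p of 0.05. Intervals of the 4 called higher genes lie right of 0 and those of the 2 called lower genes left of it, and most other members sit close to 0.

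Chaperones, which hold or refold client proteins in the ER lumen, were led by *Hspa5*. *Hspa5* (ENSMUSG00000026864, mm10 chromosome 2, 34771970 to 34776531) read 1302, 1160.1, 1607 and 1423 CPM in controls and 1431, 1725, 1741, 1527 and 1179.6 CPM in mutants. The genotypes overlapped, with the lowest mutant library near the lowest control. Its log2 fold change was 0.15 (SE 0.14, 95% interval -0.15 to 0.45, adjusted p = 0.511), so that a rise above 0.45 on the log2 scale lay outside the interval.

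*Dnajb9* (ENSMUSG00000014905, chromosome 12, 44205897 to 44210068) encodes ERdj4, a BiP co-chaperone and a classical XBP1 target. It read 20.1, 19.7, 27.8 and 33 CPM in controls and 23.6, 65.4, 70.4, 65.2 and 40.2 CPM in mutants. The first mutant library lay inside the control range and the other 4 lay above it. The rise was 1.07 on the log2 scale (SE 0.28, 95% interval 0.46 to 1.69, adjusted p = 0.0246). The call was lost in 8 of 17 alternative fits. Among these were fits without control replicate 71, 72 or 73 (adjusted p = 0.0787, 0.0796 and 0.0574) and without mutant replicate 75, 77 or 78 (0.051, 0.0569 and 0.0573), while the log2 fold change stayed between 0.71 and 1.26.

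*Sdf2l1* (ENSMUSG00000022769, chromosome 16, 17130138 to 17132383), a partner of ERdj co-chaperones in the BiP complex, went the other way. It read 69.9, 55.1, 70.6 and 48.2 CPM in controls and 41.9, 34.6, 28.4, 29.8 and 29.4 CPM in mutants. Each mutant library was below each control library, and *Sdf2l1* fell by 0.89 on the log2 scale (SE 0.16, 95% interval -1.23 to -0.55, adjusted p = 0.00405). It was called in all 17 alternative fits.

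The other 6 chaperone genes did not pass the test. *Hsp90b1* read 469 to 619 CPM in controls and 403 to 567 in mutants (log2 fold change -0.14, adjusted p = 0.48). *Dnajb11* and *Dnajc3*, co-chaperones of BiP, were at 0.20 and -0.15 on the log2 scale. *Manf*, a secreted ER stress protein, was at 0.26, and *Creld2*, an ER protein induced with it, at -0.10. *Hyou1*, the ER member of the HSP110 family, varied most within a genotype relative to its mean, from 7.29 to 25.6 CPM in controls and from 5.21 to 21.4 in mutants, and its interval of -0.95 to 0.63 was the widest of these 6. Over the 9 chaperone genes the median log2 fold change was -0.096.

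Lectin chaperones and disulfide isomerases fold glycoproteins and form disulfide bonds, and none of these 6 genes passed the test. Their log2 fold changes lay between -0.19 and 0.10, with a median of -0.105. *Calr*, which encodes calreticulin, read 644 to 815 CPM in controls and 603 to 1003 in mutants. *Canx*, which encodes its membrane-bound relative calnexin, read 266 to 393 and 287 to 422 CPM. The isomerase *Pdia3*, which works with both, read 962 to 1121 and 779 to 999.6 CPM, with a log2 fold change of -0.19 (95% interval -0.43 to 0.04, adjusted p = 0.243). *Pdia4* was at -0.10, *Pdia6* at -0.11 and *P4hb*, the archetypal protein disulfide isomerase, at -0.14.

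Among the sensors, *Ern1* (ENSMUSG00000020715, chromosome 11, 106394650 to 106487852) read 1.62, 3.27, 1.39 and 2.62 CPM in controls and 3.32, 5.27, 6.94, 3.89 and 3.77 CPM in mutants. The groups touched but did not overlap, as the highest control and the lowest mutant were 3.27 and 3.32. The rise was 1.05 on the log2 scale (SE 0.33, 95% interval 0.35 to 1.76, adjusted p = 0.047). Control libraries held 33 to 84 of its reads and mutant libraries 78 to 136. The call was lost in 10 of 17 alternative fits, with log2 fold changes of 0.87 to 1.33. Among these were fits without control replicate 71, 73 or 76 (adjusted p = 0.12, 0.139 and 0.0545) and without mutant replicate 75, 77, 78 or 79 (0.0839, 0.11, 0.0678 and 0.0575).

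*Xbp1* (ENSMUSG00000020484, chromosome 11, 5520659 to 5525893) read 156, 145, 176 and 185 CPM in controls and 186, 293, 208, 201 and 165 CPM in mutants. Of the 5 mutant libraries, 4 lay above the controls, the lowest of these at 186 CPM against 185, and the last lay inside their range. The log2 fold change was 0.35 (SE 0.16, 95% interval 0.01 to 0.69, adjusted p = 0.144). The mutant library with 293 CPM, replicate 75, was also the one with the highest stromal marker sum, 720.1 CPM. Mutant replicate 74, next in stromal sum at 500.2 CPM, read 186 CPM for *Xbp1*. Mutant replicate 77, lowest of the mutants in stromal sum at 278 CPM, read 208 CPM. These libraries were picked after their values were seen, and a relation to stromal markers was not tested. Gene counts do not separate spliced from unspliced *Xbp1*, so IRE1 activity was not measured here.

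*Atf6* (chromosome 1, 170704674 to 170867771) read 14.6, 15, 18.3 and 24.6 CPM in controls and 23.3, 16.9, 25.1, 17.5 and 25.4 CPM in mutants, with a log2 fold change of 0.25 (95% interval -0.17 to 0.68, adjusted p = 0.405). Its paralog *Atf6b* (chromosome 17, 34647146 to 34655074) read 36.2, 70.5, 73 and 53.8 CPM in controls and 61.8, 34.6, 43.4, 50.6 and 59 CPM in mutants, with a log2 fold change of -0.23 (95% interval -0.68 to 0.23, adjusted p = 0.504). Both genes overlapped between genotypes. RNA levels do not report cleavage of either protein.

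**Figure D2:**
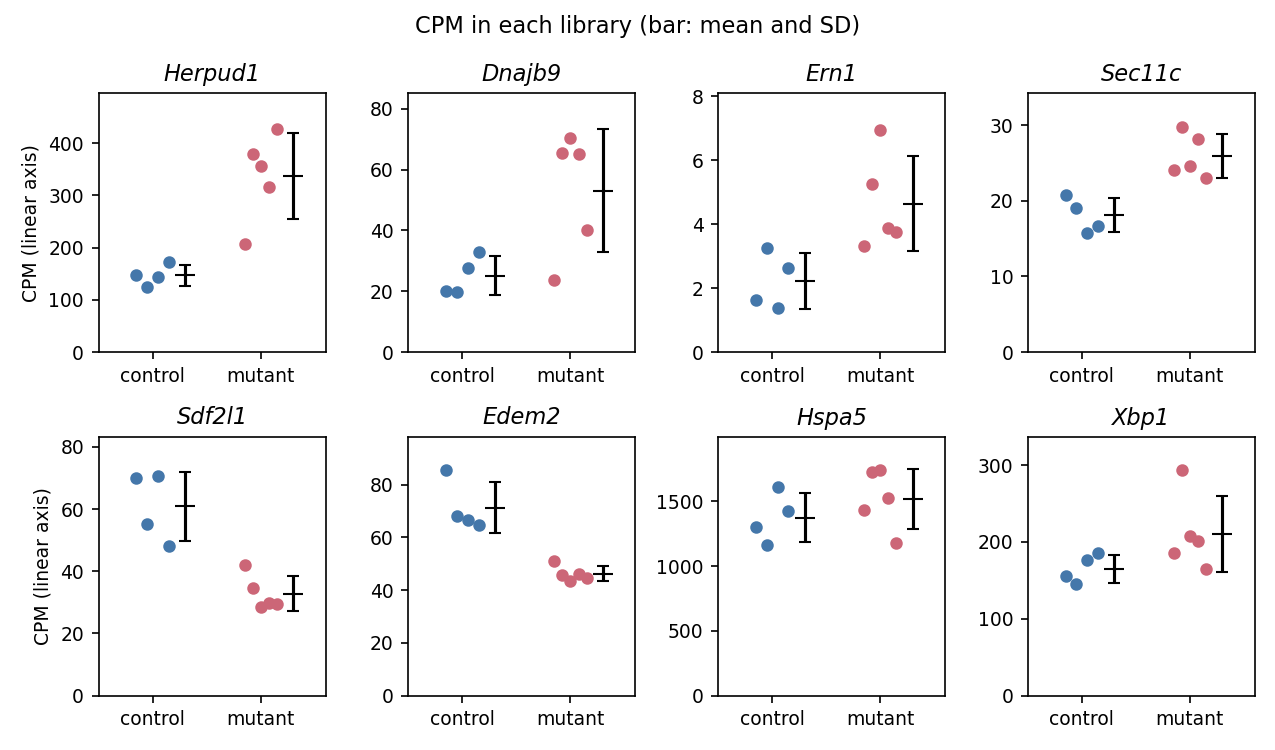
CPM of 8 members in each control (blue) and mutant (red) library on linear axes, with the mean and SD beside the points. *Herpud1*, *Ern1* and *Sec11c* separate upward and *Sdf2l1* and *Edem2* downward, 1 mutant library of *Dnajb9* lies among the controls, and *Hspa5* and *Xbp1* overlap.

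ER-associated degradation returns misfolded proteins to the cytosol for destruction, and its genes held the largest rise of the members and 1 of the 2 falls. *Herpud1* (ENSMUSG00000031770, chromosome 8, 94386438 to 94395377) read 148, 124, 143 and 172 CPM in controls and 208, 379.6, 356, 316 and 427 CPM in mutants. Each mutant library was above each control library, and the lowest mutant library was the one that also read lowest for *Dnajb9*. *Herpud1* rose 2.3-fold, 1.20 on the log2 scale (SE 0.18, 95% interval 0.81 to 1.59, adjusted p = 0.00175). It was called in all 17 alternative fits, with log2 fold changes of 1.10 to 1.33.

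*Edem2* (ENSMUSG00000038312, chromosome 2, 155701677 to 155729475), which starts mannose trimming of misfolded glycoproteins, read 85.5, 68.3, 66.6 and 64.9 CPM in controls and 51, 45.7, 43.5, 46 and 44.7 CPM in mutants. Each mutant library was below each control library. *Edem2* fell by 0.63 on the log2 scale (SE 0.12, 95% interval -0.88 to -0.37, adjusted p = 0.00528), in all 17 alternative fits too.

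Its paralogs did not pass the test. *Edem1* read 28.9 to 33.4 CPM in controls and 34.1 to 41.4 in mutants (log2 fold change 0.30, 95% interval 0.04 to 0.55, adjusted p = 0.106). *Edem3* read 7.58 to 12.1 and 12.3 to 14.7 CPM (0.48, 95% interval 0.06 to 0.89, adjusted p = 0.108). The genotypes did not overlap in either gene. The 3 *Edem* genes therefore gave 1 called fall and 2 positive values that missed the threshold.

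Of the remaining degradation genes, *Derl3* and *Os9* came nearest to the threshold. *Derl3*, a derlin of the retrotranslocation channel, read 4.87 to 8.72 CPM in controls and 2.21 to 5.61 in mutants (log2 fold change -0.90, 95% interval -1.55 to -0.26, adjusted p = 0.0596). *Os9*, a lectin that delivers glycoproteins to the ubiquitin ligase, read 33.8 to 66.2 and 24.8 to 44.1 CPM (-0.60, 95% interval -1.04 to -0.17, adjusted p = 0.0604). *Derl3* passed it in 4 of 17 alternative fits, without mutant replicate 77 (adjusted p = 0.0205) and with DESeq2 (0.0266), limma-voom (0.0153) or 1 surrogate variable (0.0463). *Os9* passed it in 6 of 17, 2 of them without control replicate 76 (0.0238) or mutant replicate 74 (0.0164). The others for *Os9* were upper-quartile factors (0.0483), DESeq2 (0.0336), no filter on low counts (0.0419) and limma-voom (0.0051). *Derl1* and *Derl2*, other derlins, were at 0.10 and -0.07 on the log2 scale. *Syvn1*, the ubiquitin ligase HRD1, was at -0.20 and its adaptor *Sel1l* at 0.12.

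Translocation genes carry new proteins across the ER membrane and cut their signal peptides. *Sec11c* (ENSMUSG00000024516), a catalytic subunit of signal peptidase, read 20.7, 19, 15.8 and 16.7 CPM in controls and 24, 29.8, 24.6, 28.1 and 23 CPM in mutants. Each mutant library was above each control library, and the rise was 0.52 on the log2 scale (SE 0.15, 95% interval 0.21 to 0.83, adjusted p = 0.0302). The call was lost in 7 of 17 alternative fits, with log2 fold changes of 0.46 to 0.62. Among these were fits without control replicate 72, 73 or 76 (adjusted p = 0.0622, 0.109 and 0.0592) and without mutant replicate 75 or 78 (0.0658 and 0.0741). *Ssr3*, of the translocon-associated complex, read 419 to 698 CPM in controls and 469 to 786 in mutants (0.40, adjusted p = 0.155). It passed the test in 3 of 17 alternative fits, without control replicate 76 (adjusted p = 0.0426) or mutant replicate 74 (0.0391), and with limma-voom (0.012). Its partner *Ssr1* was at 0.23. The translocon subunits *Sec61a1* and *Sec61b* were at -0.20 and 0.13.

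Per length, controls expressed *Hspa5* most of the members, at 525 ± 72.5 CPM per kb of gene length (SD, n = 4), followed by *Pdia3* at 369 ± 26, *Pdia6* at 347 ± 31.6, *Calr* at 332 ± 37 and *P4hb* at 306 ± 22.4. Neighbours among these last 4 differed by less than the larger of their SDs. The lowest were *Ern1* at 0.32 ± 0.126, *Edem3* at 1.55 ± 0.39, *Atf6* at 2.5 ± 0.637, *Hyou1* at 3.19 ± 1.55 and *Derl3* at 4.68 ± 1.3 CPM per kb. *Herpud1* moved from 75.2 ± 10.1 to 173 ± 42.3 CPM per kb, and *Dnajb9* from 13.5 ± 3.44 to 28.4 ± 10.8. None of the 5 genes highest in controls passed the test.

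**Figure D3:**
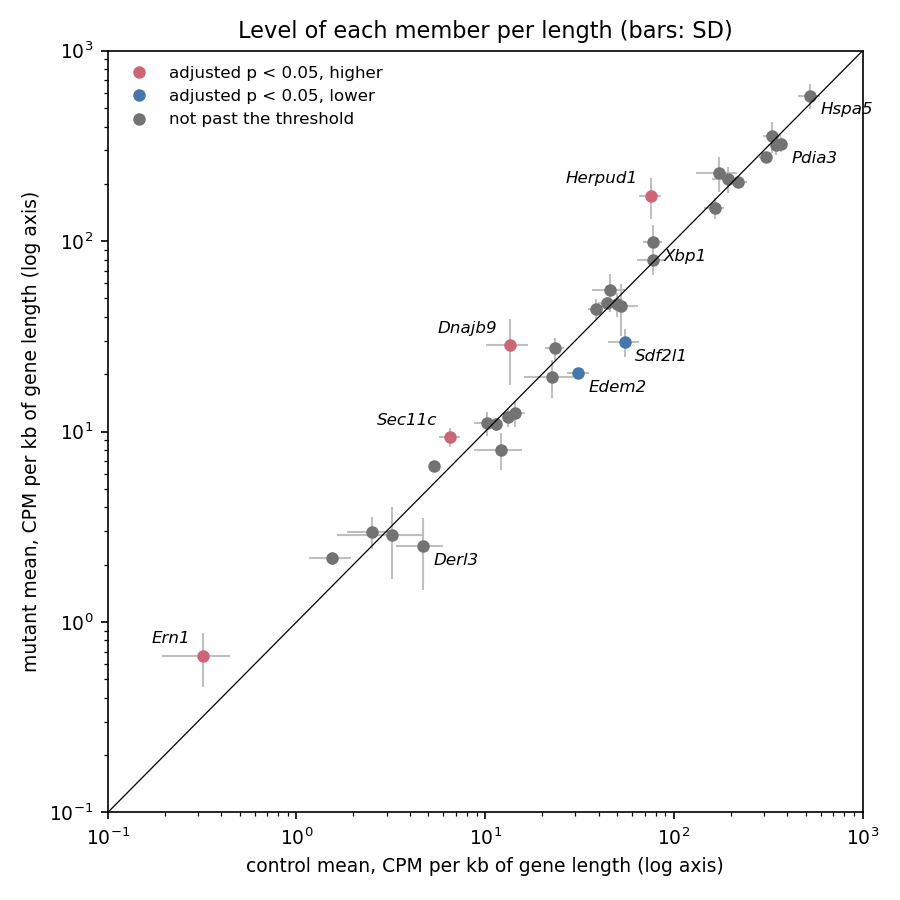
Mean level of each member in mutants against controls, in CPM per kb of gene length on log axes, with SD bars and a line of equality. The 4 called higher genes sit above the line and the 2 called lower genes below it, while *Hspa5* and the isomerases at the upper right lie close to it.

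Members were next grouped by the branch known to drive them. The ATF6 group held *Hspa5*, *Hsp90b1*, *Hyou1*, *Calr*, *Pdia4*, *Herpud1*, *Sel1l*, *Creld2*, *Manf*, *Sdf2l1* and *Xbp1*, and of these 11 genes 1 rose (*Herpud1*) and 1 fell (*Sdf2l1*), 18.2% beside 14.8% of all genes tested. Its median log2 fold change was 0.099. The XBP1 group held *Dnajb9*, *Edem1*, *Dnajc3*, *Sec61a1*, *Sec61b*, *Sec11c*, *Ssr1*, *Ssr3*, *Derl1*, *Derl2* and *Pdia6*, and of these 11 genes 2 rose (*Dnajb9*, *Sec11c*) and 0 fell, again 18.2%. Its median was 0.133. At an unadjusted p under 0.05, 4 of the 11 were higher and 0 lower. Of the 14990 genes tested, 2436 were higher and 2273 lower at that threshold. Many of these genes are known to answer to both factors, so the division is a convenience. The groups were chosen with earlier results of these data known, and their counts depend on that choice. Members in neither group include paralogs of listed genes, *Edem2* (-0.63, called lower), *Derl3* (-0.90) and *Edem3* (0.48). *Ern1* (1.05, called higher) is in neither group too. Of the 9 members with an ERSE in the promoter window 0 passed the test, where 14.8% of all genes did. Their log2 fold changes ran from -0.90 to 0.15 with a median of -0.11. Of the 2 with an ERSE-II, *Herpud1* was called higher and *Dnajb11* (0.20) was not called. These sets are small, and a difference from the share over all genes was not tested.

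The ATF4 response looked different in the same libraries. Of 36 genes listed for it, 28 were higher and 0 lower (77.8%, beside 14.8% of all genes). In 24 of them each mutant library lay above each control library, where 7.50% of all genes did so. The median log2 fold change of the list was 1.132. No gene is shared with the members. Like the member list, this one was drawn up with earlier results of these data known. The study had already reported *Asns*, *Trib3* and *Ddit3* as raised in these cells, so the share and median of the list partly reflect that choice. *Atf4* itself read 168 to 207 CPM in controls and 295 to 580.4 in mutants (log2 fold change 1.24, SE 0.17, adjusted p = 0.000857). *Ddit3*, which encodes CHOP, read 31.7 to 57.5 and 129.9 to 166 CPM (1.67, 95% interval 1.31 to 2.04, adjusted p = 0.000271), though it shares 68 bp of exon with *Mars* on the other strand, and unstranded reads there cannot be told apart. *Asns*, with the promoter shown above, read 28.2 to 47.6 and 155 to 376 CPM (2.85, adjusted p = 6.88e-05). *Trib3*, a pseudokinase, read 1.91 to 4.89 and 19.1 to 41 CPM (2.88, adjusted p = 0.000525). *Ppp1r15a*, the stress-induced eIF2α phosphatase subunit, read 71.9 to 110.4 and 85.6 to 120 CPM (-0.02, 95% interval -0.34 to 0.30, adjusted p = 0.933). Of the 34 members, 31 had an upper 95% bound under 1 on the log2 scale, that is, below the median of the ATF4 list.

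**Figure D4:**
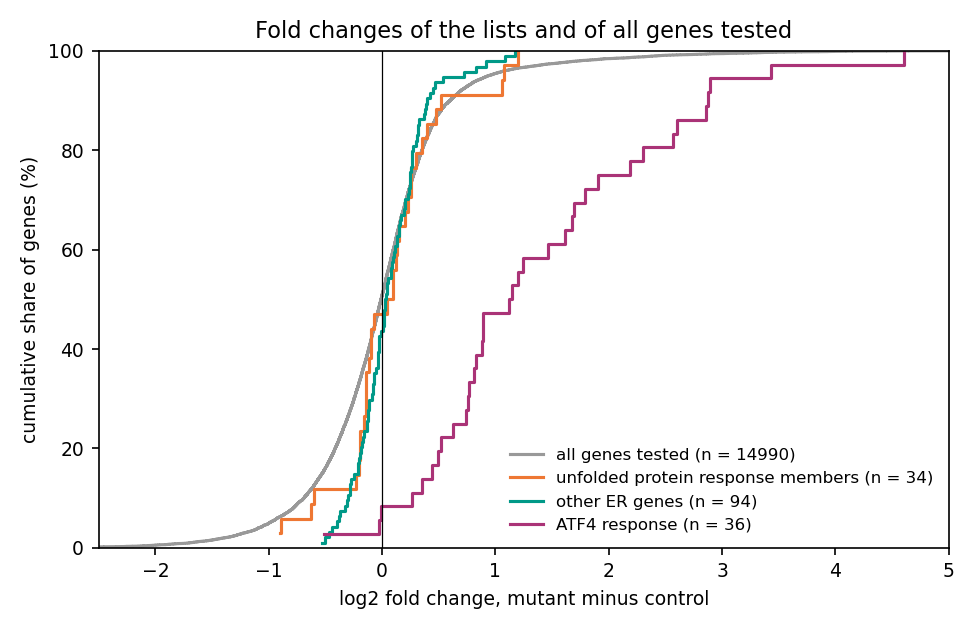
Cumulative share of genes (%) against log2 fold change, mutant minus control, for the members, the other ER genes, the ATF4 response list and all genes tested. The member curve crosses the middle near 0, at 0.069, with all genes at -0.009, and the ATF4 curve crosses at 1.132. The most extreme of all genes tested lie beyond the axis.

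List levels were also compared library by library. A library's level is the mean over a list of log2(CPM + 1), centred on the 9 libraries. The ATF4 list lay at -0.77 to -0.619 in controls and 0.339 to 0.943 in mutants, without overlap. The 34 members lay at -0.133 to 0.084 in controls and -0.04 to 0.103 in mutants. ATF6 targets spanned -0.134 to 0.157 and -0.102 to 0.233. XBP1 targets spanned -0.175 to -0.019 and -0.055 to 0.216, where 1 mutant library fell inside the control range. The mutant library with the highest ATF4 level, replicate 79 at 0.943, had the lowest *Hspa5* of the mutants, 1179.6 CPM, and a member level of -0.04. It also had the highest *Herpud1*, 427 CPM. Mutant replicate 77, next in ATF4 level at 0.621, had the highest *Hspa5*, 1741 CPM, and a member level of 0.064. These libraries were picked after their values were seen, and a relation between the levels was not tested. Stromal markers, on the same scale, lay at -1.169 to -0.18 in controls and 0.122 to 1.14 in mutants.

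**Figure D5:**
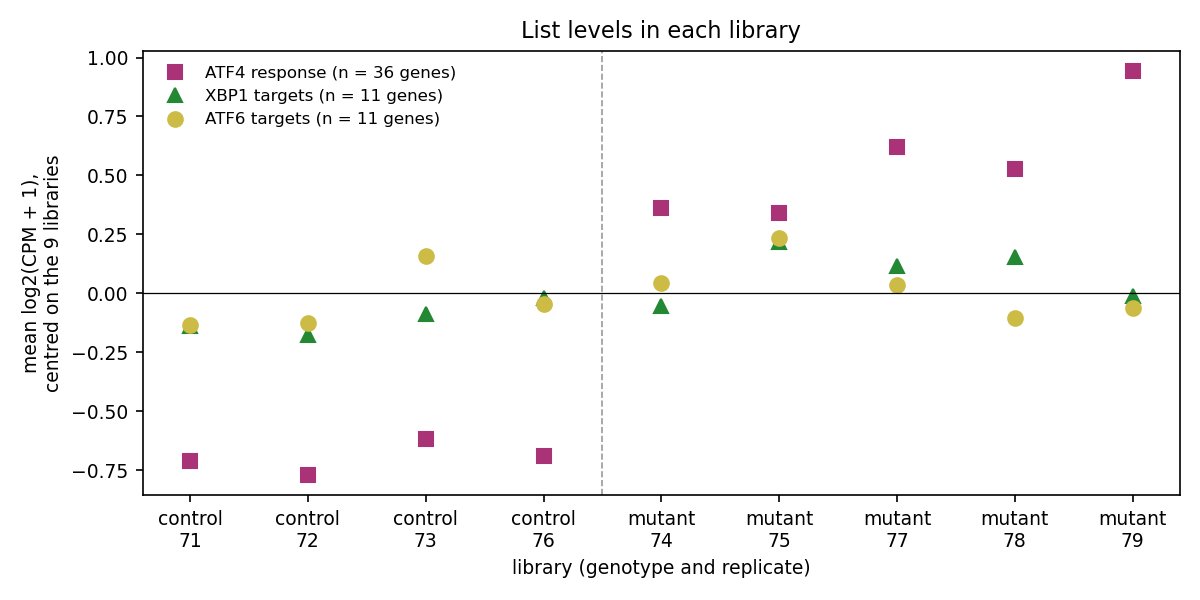
Mean log2(CPM + 1) of 3 gene lists (ATF4 response, XBP1 targets, ATF6 targets) in each of the 9 libraries, centred on the libraries, with controls left and mutants right of the dashed line. The ATF4 points move from at most -0.619 to at least 0.339, while the ATF6 and XBP1 targets stay between -0.175 and 0.233.

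The third branch is carried by genes outside the 34, and 5 of its genes were examined in full. *Eif2ak3*, which encodes PERK, read 8.35 to 13.4 CPM in controls and 5.87 to 10.1 in mutants (log2 fold change -0.21, 95% interval -0.68 to 0.26, adjusted p = 0.545). *Eif2s1*, its substrate eIF2α, was at 0.39 (adjusted p = 0.111). *Ppp1r15b*, the constitutive eIF2α phosphatase subunit, read 23 to 31.6 and 47 to 78.9 CPM (1.17, SE 0.17, adjusted p = 0.00117), and it shares 640 bp of exon with *Gm26616* on the other strand. *Nfe2l2*, a PERK substrate that controls antioxidant genes, read 72.5 to 98.8 and 106 to 191 CPM (0.83, adjusted p = 0.00822). The fifth, *Ppp1r15a*, is given above.

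Across 94 tested ER genes outside the members, which include these 5, 6 were higher and 1 was lower, 7.45% beside 14.8% of all genes, and their median log2 fold change was 0.03. Besides *Ppp1r15b* and *Nfe2l2*, the largest rises were in *Creb3l1* and *Crebrf*. *Creb3l1*, an ATF6-like membrane factor of collagen-secreting cells, read 2.68 to 5.72 CPM in controls and 5.97 to 12.1 in mutants (1.08, adjusted p = 0.0302), highest in the 2 mutant libraries with the highest stromal levels. *Crebrf*, a regulator of CREB3, read 56.1 ± 0.756 CPM in controls and 106 ± 2.85 in mutants (0.91, SE 0.10, adjusted p = 0.000275). *Fkbp10*, a collagen chaperone, fell by 0.51 on the log2 scale (adjusted p = 0.0177), and it shares 193 bp of exon with *Nt5c3b* on the other strand. The remaining calls, named after their values were seen, were *Tram1*, a translocon gene (0.72, adjusted p = 0.00233), and *Vimp*, a degradation gene (0.53, adjusted p = 0.0486). The higher count was 14 and the lower count 5 without mutant replicate 74, a fit that called 21.2% of all genes, and the lower count was 0 without control replicate 72 or 73. In the reported fit with all libraries, 0 of 26 genes for folding and oxidation rose and 1 fell. At an unadjusted p under 0.05, 2 of the 26 were higher and 5 lower. Of 16 genes for vesicle export, 0 passed the test in the reported fit, with 3 higher at an unadjusted p under 0.05. Over all genes tested, 14.8% passed the test and 31.4% had an unadjusted p under 0.05.

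Among the 28 uncalled members, adjusted p-values ran from 0.0596 to 0.875. Both 95% bounds lay within 1 of 0 on the log2 scale for 26 of them and within 0.5 for 15, so changes of 2-fold or more were outside the interval for 26. The others were *Derl3* and *Os9*. Exons of *Hsp90b1*, *Sec61a1*, *Derl2*, *Manf*, *Syvn1*, *Pdia6* and *Pdia3* overlap genes on the opposite strand by 18 to 549 bp, and without strand their reads cannot be told apart there.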

How the data were processed

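The authors sorted eGFP+ cells by FACS, amplified cDNA and deposited read counts per gene (whole numbers, 1 column per library), which are the unit used here. The submitters' processing notes name STAR, DESeq2 and mm10, without roles. The table's FPKM and signal values, and the authors' log2 fold changes and p-values, were not used. Its gene lengths gave levels per kb, as CPM per 1000 bases.

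Of 26858 genes, filterByExpr kept 14990. After TMM normalization they were compared in edgeR 4.0.16 (R 4.3.3) by the robust quasi-likelihood test without covariates, at a Benjamini-Hochberg adjusted p under 0.05. The fitting was tested on counts simulated from the means and dispersions estimated here, which checks the computation and not how well the model describes these data. Totals of 21040536 to 23986458 counts are similar between libraries, and read numbers are given for *Ern1*, the member with the fewest. CPM are per 1000000 normalized counts, and their permutation tests over 126 splits can reach 0.00794 at the lowest.

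Alternatives were RLE or upper-quartile factors, DESeq2 1.42.0, limma-voom (limma 3.58.1), 2 other count filters, a surrogate variable (sva 3.50.0), a Y-linked covariate, each library left out, and 2 other thresholds. Figures used Python 3.11.15.

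The members and the lists of branch targets, other ER genes (97 of 100 found by symbol), ATF4 response genes and cell markers were chosen with earlier results of these data known. All members are named, with every library for those past the threshold, the sensors and *Hspa5*. Of the other ER genes, the PERK arm and the largest called changes are named, and of the ATF4 list *Atf4*, *Ddit3*, *Asns*, *Trib3* and *Ppp1r15a*.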

Additional observations from a re-analysis of the deposited data

Results flagged for a closer look

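In 6 of 98 sets of 4 or 5 libraries of 1 genotype, 1 library stood apart from the rest by Dixon's test, and chance alone gives about 1 in 20. For *Edem2*, control replicate 71 read 85.5 CPM with the nearest control at 68.3. Without that library *Edem2* fell by 0.53 on the log2 scale (adjusted p = 0.0178, edgeR). For *Derl2*, control replicate 76 read 43.7 CPM, with the nearest control at 51.4. For *Eif2ak3*, control replicate 72 read 13.4 CPM against 9.1 in the nearest control, and for *Ppp1r15a*, control replicate 76 read 71.9 CPM against 107. Mutant replicate 79, the library with the highest ATF4 list level, stood apart for *Ddit3*, at 166 CPM with the nearest mutant at 140.2, and for *Trib3*, at 41 CPM with the nearest mutant at 21.6.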

How the results depend on the processing

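*Herpud1*, *Sdf2l1* and *Edem2* kept their direction and their call in all 17 alternative fits, with adjusted p-values of 2.97e-08 to 0.0099, 1.47e-05 to 0.0201 and 9.96e-05 to 0.018. Of 578 pairs of a member and an alternative fit, 528 kept direction and side of the threshold, 25 lost a call, 15 gained 1 and 10 changed sign. The cause of these changes was not tested.

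Of the members, 4 were higher in the reported fit. This count was 2 with no filter on low counts, 1 with the Y-linked covariate, 8 at an unadjusted p under 0.05, and 1 to 5 with a library left out. The count lower, 2 as reported, was 4 with DESeq2, 5 with limma-voom, 4 at an unadjusted p, 0 when an absolute log2 fold change of 1 was also required, and 2 to 3 with a library left out. In either direction, limma-voom called 32.4% of members and 32.4% of all genes, and DESeq2 23.5% and 17.7%. With no filter on low counts these shares were 14.7% and 7.35%, the latter of 26858 genes. They were 8.82% and 12.1% with the Y-linked covariate, and 17.6% and 20.8% with 1 surrogate variable. The median log2 fold change of members was -0.048 with limma-voom, and -0.003 to 0.122 with a library left out. Other ER genes higher, 6 as reported, were 24 with limma-voom, 11 with 1 surrogate variable, 2 with the fold limit, 19 at an unadjusted p, and 4 to 14 with a library left out. Those lower, 1 as reported, were 13, 5, 0 and 7 under the same settings, and 0 to 5 with a library left out. ATF4 response genes higher, 28 as reported, were 18 with the fold limit and 24 to 29 with a library left out, with 0 lower in each of these fits.

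The sign changes were in genes that missed the threshold. *Hyou1* went to 0.03 with 1 surrogate variable, 0.07 with the Y-linked covariate, 0.18 without control replicate 73 and 0.05 without mutant replicate 78, and spanned -0.39 to 0.18 with a library left out and -0.73 to 0.18 over all 17 fits, lowest with limma-voom. *Calr* went to -0.0091 without mutant replicate 75. *Canx* went to -0.16 with limma-voom and -0.05 without control replicate 71 or mutant replicate 74, and spanned -0.05 to 0.14 with a library left out. *Sec61a1* went to 0.02 and *Sec61b* to -0.0025 with 1 surrogate variable.

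No paired analysis was made. The replicate numbers run as a single series across both genotypes and do not show pairing, and litter was not given in the sources used here. The lowest read numbers were those of *Ern1*, with 33 to 136 per library, and *Derl3*, with 50 to 207.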
